A study of Homo sapiens with 16 samples.

Results

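The 46 genes described here encode subunits of chromatin remodeling complexes and were taken by name out of the 18332 genes of the table. By complex, they were 13 genes of NuRD, 16 of SWI/SNF, 6 of ISWI, 2 of FACT, 3 of the INO80 family and 6 further CHD helicases. The rule used no threshold, but the list was chosen by readers who had already seen the glucose responses of these genes in the same samples. Counts over the list therefore describe its members and do not test the complexes.

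Chromatin remodelers change how DNA is wrapped around histones. Most use the energy of ATP to slide, eject or space nucleosomes, and they are large assemblies in which related genes often supply alternative versions of the same subunit. NuRD joins a helicase, CHD3 or CHD4, to the histone deacetylases HDAC1 and HDAC2. SWI/SNF is built around SMARCA4 or SMARCA2, opens chromatin at enhancers and promoters, and is among the complexes most often mutated in human cancer. ISWI enzymes space nucleosomes, the INO80 family exchanges histone variants, and FACT is a histone chaperone without an ATPase that lets polymerases pass nucleosomes. Several subunits are shared, so each gene was counted once, under the complex it is best known for.

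RNA sequencing covered 16 samples of MDA-MB-231 and MDA-MB-468, established human breast cancer cell lines labelled as negative for the estrogen receptor. Control flasks held 5 mM glucose, called low glucose here, and treated flasks 25 mM, called high glucose, for 48 hours, with 4 replicates in each of the 4 groups. No source used here says that replicates were separate cultures, so p-values measure the spread between these samples, which may be technical. The comparisons ask how each line responded to high glucose, whether the lines responded differently, and how the lines differed in low glucose. Each line comes from a single tumor, so a difference between the lines is not a difference between kinds of breast cancer.

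Libraries held between 14094597 and 24425916 reads, and a floor of 3 reads was worth 0.123 to 0.213 CPM (counts scaled to library size). Levels are given as normalized counts, the reads of a gene divided by the size factor of its library, or, between genes, as RPKM, reads scaled to the length of the canonical transcript and the size of the library. The line markers separated the lines. VIM and ZEB1 averaged 5548 and 94.4 CPM in MDA-MB-231 in low glucose but 1.37 and 0.181 in MDA-MB-468, and KRT5 and CDH1 were at 964 and 128 in MDA-MB-468 but at 0.0649 and 0.318 in MDA-MB-231. CD44 did not mark MDA-MB-231, since it was at 1038 CPM there and 1622 in MDA-MB-468. ESR1, the estrogen receptor gene, was under the floor in MDA-MB-231 and at 3.68 CPM in MDA-MB-468, and PGR was not analysed here. Bulk RNA cannot tell fewer cells from less RNA per cell, and this holds for every result below.

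The stretches of DNA before the starts of 4 members are shown because these genes form the pairs on which the results turn, CHD4 with its alternative CHD3 in NuRD, and SSRP1 with its obligate partner SUPT16H in FACT. Each is the 250 bases before a RefSeq start, on build GRCh38.p14 and 5′ to 3′ on the gene's strand. Capitals mark CACGTG (an E-box), GGGCGG (a GC box), CCAAT (named by its letters), CCGGAAG (the ETS family) and TTTGGCGC (E2F), found on either strand. The CHD4 window is chr12:6606452-6606701 on the minus strand, SSRP1 is chr11:57335893-57336142 on the minus strand, CHD3 is chr17:7888539-7888788 on the plus strand and SUPT16H is chr14:21384020-21384269 on the minus strand.
CHD4: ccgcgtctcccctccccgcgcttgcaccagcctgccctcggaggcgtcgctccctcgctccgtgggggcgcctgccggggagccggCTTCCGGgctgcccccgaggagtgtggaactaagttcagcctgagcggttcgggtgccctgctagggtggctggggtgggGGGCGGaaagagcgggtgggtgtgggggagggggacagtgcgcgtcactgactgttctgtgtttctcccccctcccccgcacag
SSRP1: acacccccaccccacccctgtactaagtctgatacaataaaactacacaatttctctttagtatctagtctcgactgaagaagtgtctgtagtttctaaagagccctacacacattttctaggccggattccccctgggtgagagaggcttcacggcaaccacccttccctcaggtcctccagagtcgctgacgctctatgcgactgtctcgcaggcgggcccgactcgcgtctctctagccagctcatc
CHD3: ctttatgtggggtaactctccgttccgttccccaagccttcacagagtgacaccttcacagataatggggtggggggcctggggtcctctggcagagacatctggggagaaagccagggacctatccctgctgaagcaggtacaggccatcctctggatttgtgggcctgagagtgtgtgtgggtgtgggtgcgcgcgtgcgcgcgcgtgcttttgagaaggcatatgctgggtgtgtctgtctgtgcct
SUPT16H: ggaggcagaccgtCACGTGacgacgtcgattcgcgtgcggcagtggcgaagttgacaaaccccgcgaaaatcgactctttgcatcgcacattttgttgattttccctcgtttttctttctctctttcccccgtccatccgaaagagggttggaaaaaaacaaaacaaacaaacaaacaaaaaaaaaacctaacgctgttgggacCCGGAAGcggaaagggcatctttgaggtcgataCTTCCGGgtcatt

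The CHD4 window held 1 GC box and 1 ETS match, the SUPT16H window 1 E-box and 2 ETS matches, and the SSRP1 and CHD3 windows none of the 5 motifs. Their GC contents were 72% for CHD4, 53.2% for SSRP1, 58.8% for CHD3 and 48.4% for SUPT16H. Placed on hg19 by exact match, the windows of SSRP1, CHD3 and SUPT16H end at the start of the canonical transcript, while that of CHD4 ends 928 bases downstream of it. RefSeq windows were found for 38 of the 46 members, 58 windows in all. A GC box was in 65.5% of these, against 42.6% of all 35116 windows, an E-box in 6.90% against 6.34%, CCAAT in 29.3% against 32.0%, an ETS match in 13.8% against 8.52% and the E2F letters in 0 against 0.55%. A match is a description of the letters, and no match says nothing about a factor.

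High glucose was followed by lower levels of 12 of the 46 remodeler genes in MDA-MB-231 and by higher levels of 0. The changes were small: the median log2 fold change over the members was -0.09, against 0.00 over all genes tested, and 42 of the 46 were below 0. The lower genes were 3 of NuRD (CHD4, HDAC2 and RBBP7), both genes of FACT, 5 of SWI/SNF (SMARCA4, SMARCC1, ARID1A, PBRM1 and ACTL6A), BAZ1B of ISWI and SRCAP of the INO80 family. None of the 6 further CHD genes passed the limma threshold of 0.05 on the adjusted p, and CHD2, HDAC1, SMARCD3 and INO80 were the 4 members with values above 0. Over all 14884 genes tested, 9.37% were lower and 5.71% higher, and 26.1% of the members were lower. Among genes with at least 1 CPM in 4 samples, 10.9% were lower. Under quantile normalization the split over all genes was 7.49% lower to 6.90% higher, and 7 members were lower. After the transcript length correction 8 members were lower and 2 higher, beside 8.45% and 6% of all genes. After the GC content correction 18 were lower, with 12.1% of all genes. Members that reached a log2 change of 0.5 numbered 0, against 1.26% of all genes.

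SUPT16H and SMARCA4 had the largest falls in MDA-MB-231. SUPT16H, the larger FACT subunit (chr14:21819635-21852178 on hg19), was at 4061, 4059.9, 3965 and 4210.1 normalized counts in the 4 low glucose samples and at 3430.0, 3406, 3409.7 and 3331 in high glucose. The groups did not overlap, and the log2 fold change was -0.26 ± 0.03 (SE, limma adjusted p = 9.77e-06, n = 4 per group). SMARCA4, the main ATPase of SWI/SNF (chr19:11071608-11190102), was at 5698, 5261, 5493 and 5416 in low glucose and at 4832, 4563, 4665 and 4906 in high glucose. Every high glucose sample was under every low glucose sample, with a log2 fold change of -0.21 ± 0.03 (limma adjusted p = 0.000329).

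BAZ1B, which partners SMARCA5 in the WICH form of ISWI (chr7:72854736-72936623), and CHD4, the helicase of NuRD (chr12:6679248-6723690), also fell without overlap. BAZ1B was at 2210.1, 2307, 2155 and 2315 in low glucose and 2048, 1929, 1891 and 2012 in high glucose, and its log2 fold change was -0.19 ± 0.04 (limma adjusted p = 0.00215). CHD4 was at 5000.3, 4851, 4845 and 4971 in low glucose and 4328, 4225, 4175 and 4544 in high glucose. Its log2 fold change was -0.19 ± 0.03 (limma adjusted p = 0.000547), and all 4 high glucose samples lay under the low glucose range. In all, 14 members had groups of 4 that did not overlap in this line, 30.4% of them, against 18.7% of all genes. Of these, 10 were among the 12 called, and CHD2, CHD6, SMARCA2 and INO80 were not called.

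The other 8 called members had log2 fold changes between -0.19 and -0.12. ACTL6A, an actin-related subunit of SWI/SNF, was at -0.19 ± 0.04 and SMARCC1, a scaffold of the SWI/SNF core, -0.15 ± 0.03. SSRP1, the FACT subunit that binds DNA, was at -0.12 ± 0.03, and it lost its call under quantile normalization (limma adjusted p = 0.0846). The calls of 4 members hung on single libraries, and all 4 were lost under quantile normalization (limma adjusted p = 0.0536 to 0.128). RBBP7, a histone-binding subunit of NuRD, had log2 fold changes of -0.13 to -0.10 and limma adjusted p values of 0.0569 to 0.118 without low glucose replicate 2 or 3, or without any 1 of the 4 high glucose replicates, and it was not called by edgeR (adjusted p = 0.0547). ARID1A, which defines the canonical form of SWI/SNF, had -0.13 to -0.11 and 0.0693 to 0.0856 without low glucose replicate 1 or high glucose replicate 2 or 3. PBRM1, which defines the PBAF form, had -0.13 to -0.10 and 0.0601 to 0.111 without low glucose replicate 3 or 4 or high glucose replicate 2 or 4. SRCAP, a histone exchange ATPase, had -0.13 to -0.12 and 0.0563 to 0.0611 without low glucose replicate 1 or high glucose replicate 2. After the transcript length correction ARID1A, PBRM1 and SRCAP were at -0.09, -0.08 and -0.07, with limma adjusted p values of 0.194, 0.137 and 0.261.

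The 18 proliferation genes listed beside the members, MKI67 and the MCM helicase genes among them, were lower in high glucose in MDA-MB-231 in 18 of 18 cases, with a median log2 fold change of -0.37. Their summed level was 44470.5 to 44590.6 normalized counts in low glucose and 32871.8 to 33074.7 in high glucose, with none at 0. In MDA-MB-468, 10 were higher and 2 lower, with a median of 0.11, and the sums were 43563.9 to 44572.6 in low and 47466.5 to 47819.9 in high glucose. The part of this list in the members' results was not tested.

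In MDA-MB-468 the remodeler genes moved in both directions. High glucose was followed by higher levels of 14 members and lower levels of 16, with a median log2 fold change of -0.04 against 0.00 for all genes. Over the 15757 genes tested, 24.9% were higher and 22.7% lower, against 30.4% and 34.8% of the members. Among genes with at least 1 CPM in 4 samples, 28.2% were higher and 24.9% lower, beside 15 and 16 members. A log2 change of at least 0.5 was reached by 5 members, CHD4, SSRP1, SMARCD3, SMARCA1 and BAZ2A, or 10.9%, against 13.4% of all genes. The groups of 29 members did not overlap, 63.0% against 42.5% of all genes. After a correction for transcript length the count of lower members was 10 and that of higher members 18. Of all genes, 21.7% were then lower and 25.2% higher.

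**Figure D1:**
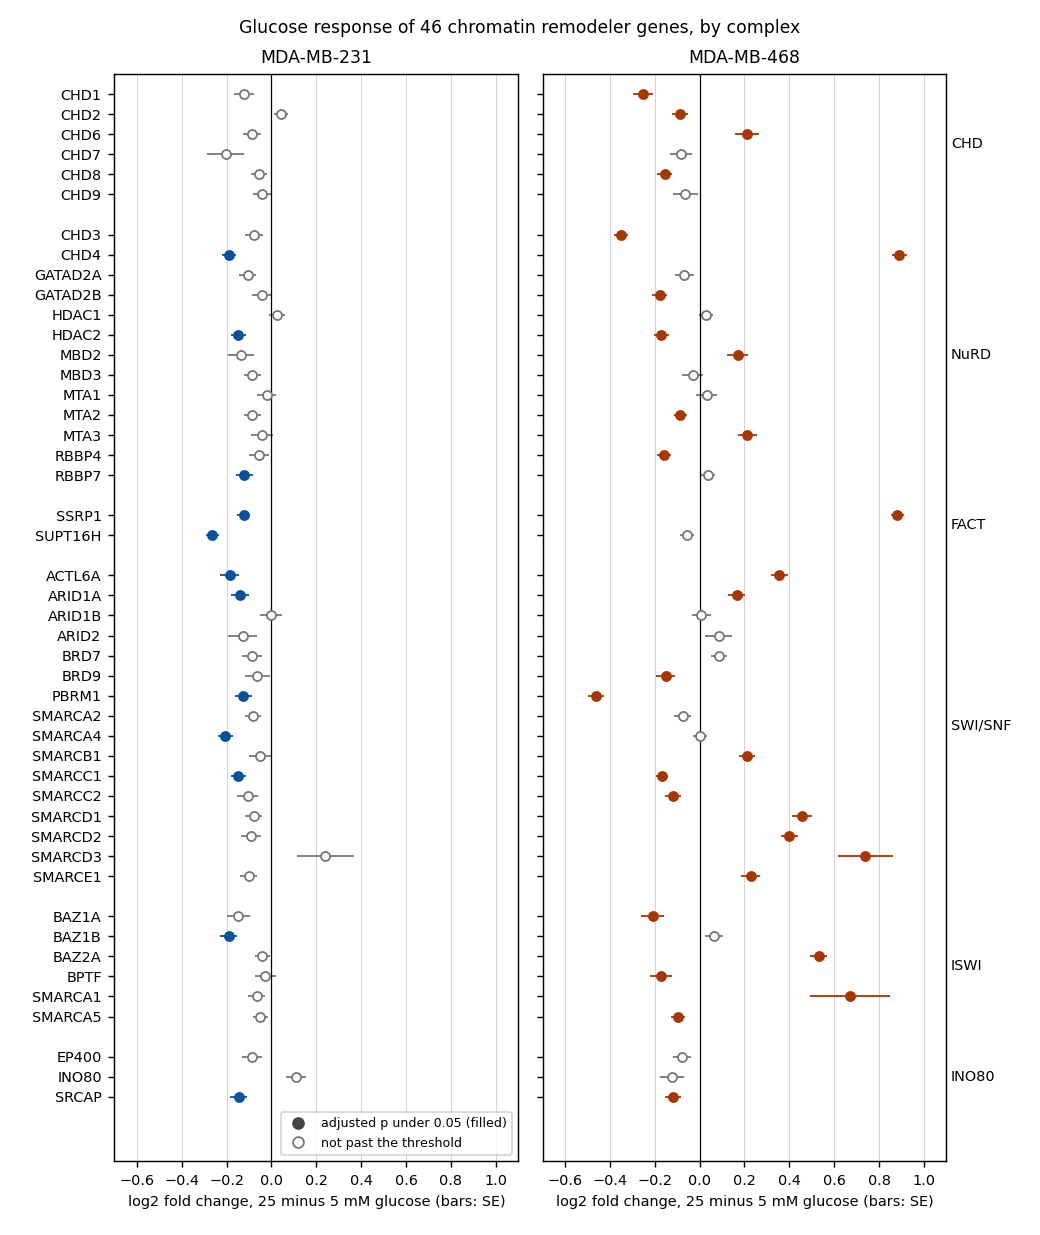
Log2 fold change of the 46 genes from 5 to 25 mM glucose in each line, grouped by complex, with points for the limma estimate and bars for its standard error; filled points passed the adjusted p threshold of 0.05. In MDA-MB-231 the 12 filled points lie between -0.26 and -0.12, while in MDA-MB-468 the 30 filled points spread from -0.46 to 0.89.

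Of the 13 NuRD genes in MDA-MB-468, 3 were higher, 5 lower and 5 not called, beside 24.9% higher and 22.7% lower of all genes. CHD4 was at 2939, 2974, 2935 and 3179.7 normalized counts in low glucose and at 5554, 5653, 5345 and 5724 in high glucose. The high glucose samples all lay above the low glucose samples, with a log2 fold change of 0.89 ± 0.03 (limma adjusted p = 1.07e-11), the largest rise of any member. CHD3, the alternative helicase (chr17:7788114-7816078), was at 5525, 5527, 5596 and 5935 in low glucose and 4260.0, 4405, 4433 and 4621 in high glucose. It fell without overlap, by 0.35 ± 0.03 on the log2 scale (limma adjusted p = 2.44e-07). In the annotation, 46.9% of the exonic bases of CHD4 also lie in a gene on the same strand, ENSG00000285238, which was not analysed here, and 10.2% lie under exons of the opposite strand gene ENSG00000247853, which averaged at most 6.63 normalized counts in any group.

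CHD4 went from the lower to the higher of the NuRD helicases in MDA-MB-468. Per length, CHD4 held 37.7% ± 0.27 (SD, n = 4) of the summed RPKM of CHD4 and CHD3 in low glucose and 58.85% ± 0.85 in high glucose. In MDA-MB-231 its share was 58.05% ± 0.53 in low and 56.2% ± 0.94 in high glucose. The sum of both genes in MDA-MB-468 was 76.3 to 82.7 RPKM in low and 88.25 to 93.3 in high glucose, so the groups did not overlap. These shares rest on the same reads as the fold changes above and were not tested again.

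Of the other NuRD genes in MDA-MB-468, MTA3 and MBD2 rose, with log2 fold changes of 0.21 ± 0.04 and 0.17 ± 0.05. MTA proteins form the scaffold of the complex, and MBD2 binds methylated DNA. HDAC2, RBBP4, GATAD2B and MTA2 fell, by 0.17, 0.16, 0.18 and 0.09 on the log2 scale. HDAC2 was at 6903, 7416, 6786 and 6838 in low glucose and 6315, 6028, 6369 and 6104 in high glucose, and was lower without overlap in MDA-MB-231 as well. The call of MTA2 was lost without low glucose replicate 1 or 4 or high glucose replicate 1 or 2, with limma adjusted p values of 0.0545 to 0.0749, and that of HDAC2 in both lines was lost after the length correction. HDAC1, MTA1, MBD3, GATAD2A and RBBP7 did not pass the threshold in this line, with log2 fold changes between -0.07 and 0.04.

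The FACT genes parted in MDA-MB-468. SSRP1 (chr11:57093460-57103366) was at 4642, 4625, 4690.4 and 4661 normalized counts in low glucose and at 8686, 8170.0, 8777 and 8682 in high glucose. All high glucose samples were far above the low glucose samples, and the log2 fold change was 0.88 ± 0.03 (limma adjusted p = 2.91e-12). SUPT16H was at 2990.0, 3127, 2995 and 3159 in low glucose and 3001, 2989, 2876 and 2943 in high glucose. Its groups overlapped and its log2 fold change was -0.06 ± 0.03 (limma adjusted p = 0.164). Per length, the ratio of SSRP1 to SUPT16H was 2.31 to 2.45 in low glucose and 4.28 to 4.78 in high glucose. In MDA-MB-231 that ratio was 1.67 to 1.82 in low and 1.89 to 1.96 in high glucose, where both genes fell.

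**Figure D2:**
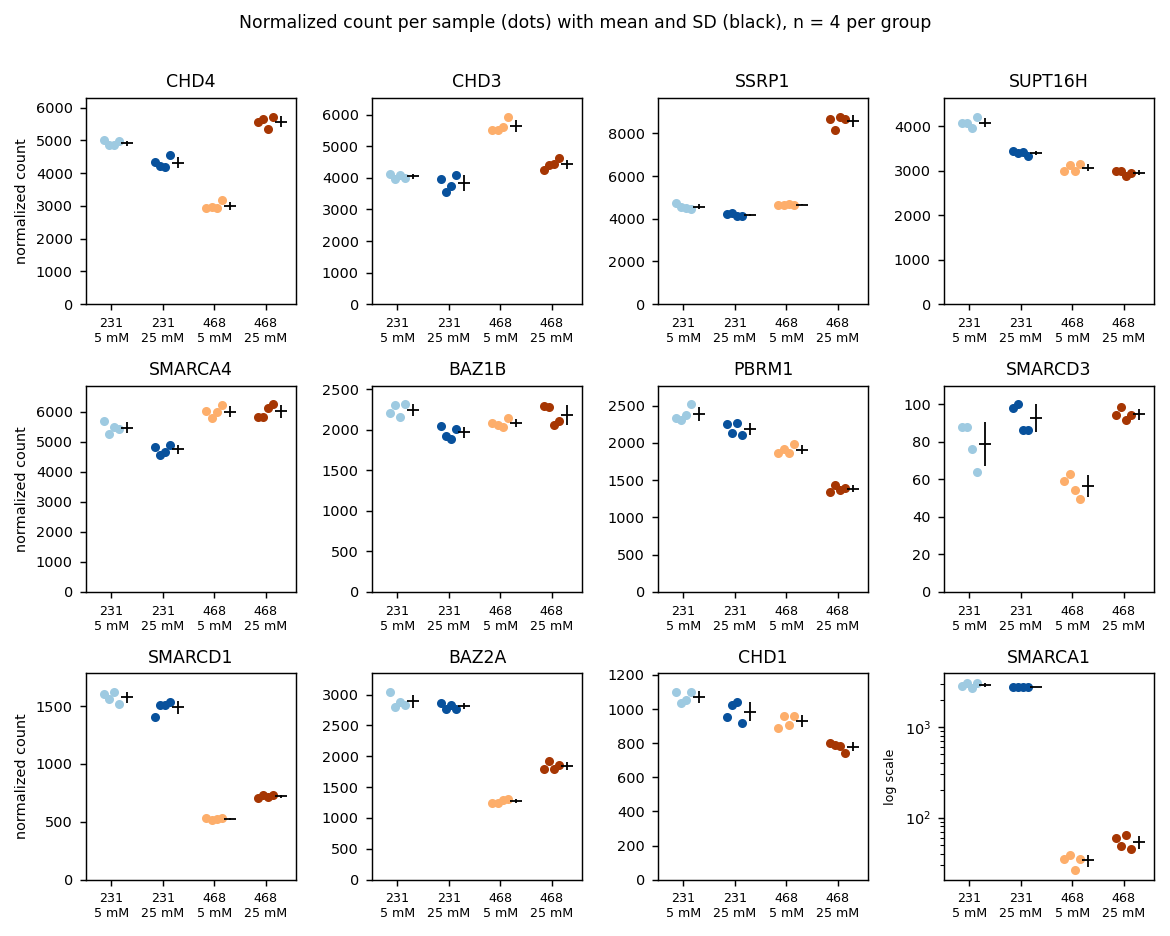
Normalized counts of 12 members in each of the 16 samples, as dots by line and glucose level, with the mean and SD of the 4 samples of a group in black; the axis starts at 0 except for SMARCA1, which is on a log axis. CHD4 and SSRP1 sit higher in 25 than in 5 mM glucose in MDA-MB-468 and lower in MDA-MB-231, without overlap in either line.

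Of the 16 SWI/SNF genes, 7 were higher and 4 lower in MDA-MB-468, beside 24.9% and 22.7% of all genes. The risers included all 3 SMARCD genes, which encode alternative versions of the same accessory subunit. SMARCD3 (chr7:150935850-150974982) was at 59.3, 63.0, 54.3 and 49.4 normalized counts in low glucose and 94.3, 98.3, 91.6 and 94.4 in high glucose. Its groups were well apart at a low level, with a log2 fold change of 0.74 ± 0.12 (limma adjusted p = 0.000101). Of its exonic bases, 40.1% lie under genes on the opposite strand, and 1 of these, CHPF2, had a log2 fold change of 0.25 ± 0.05. CHPF2 averaged 578 normalized counts in low and 686 in high glucose, far above SMARCD3. The part of CHPF2 reads in the SMARCD3 values was not tested. SMARCD1 and SMARCD2 rose by 0.46 ± 0.04 and 0.40 ± 0.04. ACTL6A rose by 0.36 ± 0.04, SMARCE1 by 0.23 ± 0.04, SMARCB1 by 0.21 ± 0.04 and ARID1A by 0.17 ± 0.04. SMARCE1 and SMARCB1 are shared by the canonical and PBAF forms of the complex. Of the exonic bases of SMARCB1, 17.7% lie under the opposite strand gene DERL3, which averaged at most 44.6 normalized counts. For SMARCE1, 18.9% also lie in the same-strand gene ENSG00000264058, whose median over the 16 samples was 19.25 normalized counts. SMARCE1 also has 7 annotated pseudogenes of its name.

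PBRM1 had the largest fall of any member in MDA-MB-468. This gene (chr3:52579368-52719933) encodes the bromodomain protein of PBAF that binds acetylated histones. It was at 1866, 1922, 1863 and 1990.4 normalized counts in low glucose and at 1347, 1442, 1365 and 1395 in high glucose. The groups did not overlap, and the log2 fold change was -0.46 ± 0.04 (limma adjusted p = 3.52e-08). The other PBAF genes listed, ARID2 and BRD7, did not pass the threshold, with log2 fold changes of 0.09 ± 0.06 and 0.09 ± 0.04, nor did ARID1B with 0.01 ± 0.04. After the length correction all 3 were called higher, with 0.17 for ARID2, 0.13 for BRD7 and 0.11 for ARID1B (limma adjusted p = 0.0137, 0.00503 and 0.0277), as were ARID2 and BRD7 after the GC correction. SMARCC1 and SMARCC2, the core scaffolds, fell by 0.17 ± 0.03 and 0.12 ± 0.03, and BRD9, of the non-canonical form, by 0.15 ± 0.04. The ATPases SMARCA4 and SMARCA2 did not pass, with 0.00 ± 0.03 and -0.08 ± 0.04. SMARCA4 was called lower after a GC content correction, at -0.07 (limma adjusted p = 0.0275).

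Among the ISWI genes of MDA-MB-468, SMARCA1 and BAZ2A rose while BAZ1A, BPTF and SMARCA5 fell. SMARCA1, the ISWI ATPase best known from neurons (chrX:128580478-128657477), was at 34.8, 38.7, 26.3 and 35.0 normalized counts in low glucose and at 59.3, 49.2, 64.1 and 44.7 in high glucose. The groups did not overlap but the level was low, down to 30 reads in a library, and the log2 fold change was 0.67 ± 0.18 (limma adjusted p = 0.00526). BAZ2A, which guides ISWI to ribosomal gene repeats, was at 1249, 1239, 1298 and 1312 in low glucose and 1798, 1927, 1793 and 1851 in high glucose. Its groups were far apart, with a log2 fold change of 0.53 ± 0.04 (limma adjusted p = 8.59e-09). BAZ1A, of the ACF form (chr14:35221937-35344853), was at 1056, 1165, 1119 and 1278 in low glucose and 947, 1029, 1004 and 1006 in high glucose. It fell without overlap by 0.21 ± 0.05 on the log2 scale (limma adjusted p = 0.00328), and 12.4% of its exonic bases lie under the antisense gene BAZ1A-AS1. BPTF, the large subunit of NURF, and SMARCA5, the widely expressed ISWI ATPase, fell by 0.17 ± 0.05 and 0.09 ± 0.03, and both calls were lost after the length correction. That of SMARCA5 was also lost after the GC correction, at -0.02 (limma adjusted p = 0.603), and without high glucose replicate 1 or 4 (limma adjusted p = 0.0543 and 0.0575). BAZ1B did not pass, at 0.07 ± 0.04, and was called higher after the length correction, at 0.12 (limma adjusted p = 0.0123).

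CHD1, a helicase that spaces nucleosomes behind RNA polymerase (chr5:98189689-98264711), had the largest fall of the further CHD genes. It was at 889.7, 958, 905 and 961 normalized counts in low glucose and at 804, 789, 785 and 740.1 in high glucose of MDA-MB-468. Its groups did not overlap, and the log2 fold change was -0.25 ± 0.04 (limma adjusted p = 0.000193). CHD8 fell by 0.15 ± 0.03 and CHD2 by 0.09 ± 0.03, while CHD6 rose by 0.21 ± 0.05. CHD8 lost its call after the length correction. CHD2 lost it under DESeq2 (adjusted p = 0.0539), after the length and GC corrections, and without any 1 library of this line except low glucose replicate 3 (limma adjusted p = 0.0562 to 0.129). CHD7 and CHD9 did not pass, at -0.08 ± 0.05 and -0.06 ± 0.06. Of the INO80 family, SRCAP was called lower at -0.12 ± 0.04, a call lost after the length correction, while INO80 and EP400 were at -0.12 ± 0.05 and -0.08 ± 0.04 without passing. In the annotation, 73.9% of the exonic bases of SRCAP also lie in other genes on the same strand.

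The lines differed in how these genes responded. The difference of the log2 fold changes, MDA-MB-468 minus MDA-MB-231, passed the limma threshold for 23 members, 19 with the higher response in MDA-MB-468 and 4 with the lower. Over all 17115 genes tested, 17.0% differed upward and 13.9% downward, against 41.3% and 8.70% of the members. Among genes with at least 1 CPM in 4 samples, 19.6% differed upward and 15.6% downward. Under quantile normalization 17 members differed upward and 9 downward, beside 15.7% and 16.2% of all genes. This test uses the same samples as the responses within each line, so its calls are not separate evidence.

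**Figure D3:**
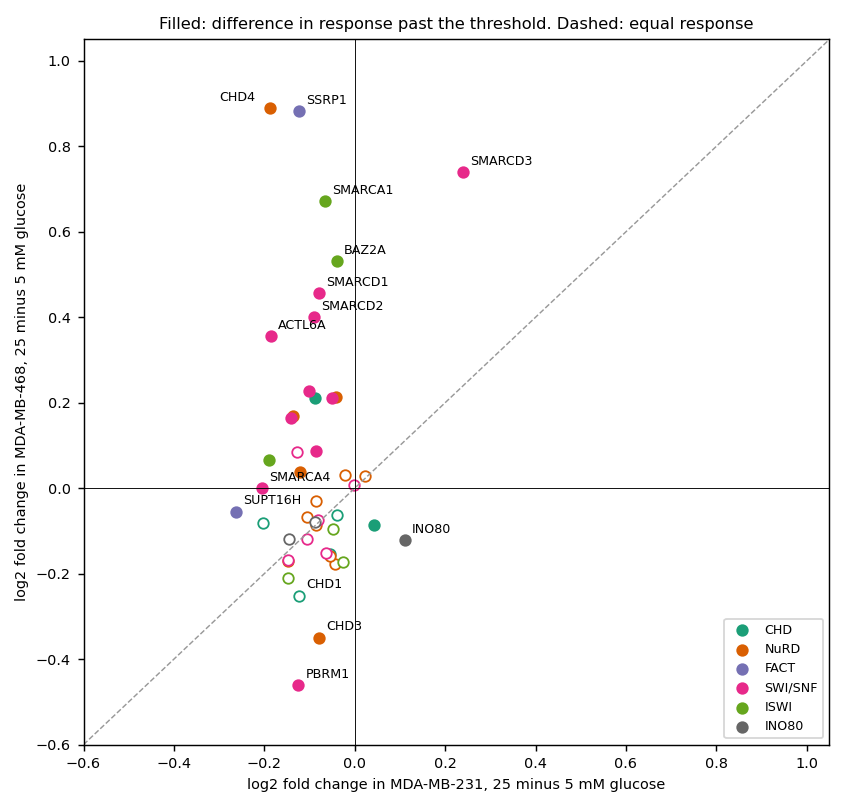
Log2 fold change from 5 to 25 mM glucose in MDA-MB-231 (horizontal) and MDA-MB-468 (vertical), with a point for each of the 46 genes, coloured by complex; filled points passed the threshold for a difference between lines, and the dashed line marks equal responses. CHD4 and SSRP1 lie at -0.19 and -0.12 in MDA-MB-231 and at 0.89 and 0.88 in MDA-MB-468, while PBRM1 and CHD3 lie below the line.

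CHD4, SSRP1 and SMARCA1 had the largest upward differences. They were 1.08 ± 0.04 (limma adjusted p = 3.00e-10) for CHD4, 1.01 ± 0.03 (limma adjusted p = 3.50e-11) for SSRP1 and 0.74 ± 0.15 (limma adjusted p = 0.00148) for SMARCA1. SMARCA1 did not pass in MDA-MB-231, where it was at 2825, 3029.5, 2718 and 3063 normalized counts in low and 2784, 2778, 2763 and 2779 in high glucose. BAZ2A, ACTL6A, SMARCD1, SMARCD3 and SMARCD2 followed, with differences between 0.49 and 0.57. That of SMARCD3, 0.50 ± 0.16 (limma adjusted p = 0.0259), was lost without MDA-MB-231 low glucose replicate 1 or 2, MDA-MB-231 high glucose replicate 3 or 4, or MDA-MB-468 low glucose replicate 4 (limma adjusted p = 0.0503 to 0.0566). SUPT16H and SMARCA4 differed by 0.21 ± 0.04 and 0.21 ± 0.05, and both fell in MDA-MB-231 and did not pass in MDA-MB-468. SMARCA4 was not called under quantile normalization.

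PBRM1, CHD3 and INO80 had the largest downward differences. That of PBRM1 was -0.34 ± 0.05 (limma adjusted p = 6.61e-05), with 2330.1, 2311, 2378 and 2517 normalized counts in low and 2252, 2128, 2263 and 2103 in high glucose in MDA-MB-231. That of CHD3 was -0.27 ± 0.05 (limma adjusted p = 0.00112), with 4123, 3977, 4091 and 3979.8 in low and 3969, 3547, 3738 and 4085 in high glucose in MDA-MB-231, where the groups overlapped. INO80, the ATPase of its complex (chr15:41271078-41408478), was at 893, 889, 865 and 850.3 in low and 923, 1007, 903 and 944 in high glucose in MDA-MB-231. In MDA-MB-468 it was at 585, 677, 614 and 640.4 in low and 579, 558, 559.7 and 612 in high glucose. Neither response passed within a line, the groups were apart only in MDA-MB-231, and the difference was -0.23 ± 0.07 (limma adjusted p = 0.0130). The fourth downward difference was CHD2, at -0.13 ± 0.03, which was not called after the length correction.

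Read by member, 4 genes were called lower in MDA-MB-231 and higher in MDA-MB-468: CHD4, SSRP1, ARID1A and ACTL6A. HDAC2, SMARCC1, PBRM1 and SRCAP were called lower in both lines, but after the transcript length correction HDAC2 and SRCAP were called in neither line, PBRM1 only in MDA-MB-468 and SMARCC1 still in both. RBBP7, SUPT16H, SMARCA4 and BAZ1B were called lower in MDA-MB-231 and not called in MDA-MB-468. The remaining calls were in MDA-MB-468 alone, 10 higher and 12 lower, and 12 members were called in neither line. A call in only 1 line is not a difference between lines unless the test of the difference passed.

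Most remodeler genes, like most of all genes tested, also differed in level between the lines in low glucose. By the limma test, 21 members were higher in MDA-MB-468, 21 were lower and 4 did not pass, against 45.0% higher and 40.4% lower of all genes. The split was 25 higher to 16 lower after the transcript length correction, beside 45.1% and 40.2% of all genes. Under quantile normalization it was 23 to 18, beside 42.7% and 41.7%. A fold of 2 or more was reached by 7 members, 15.2%, against 47.1% of all genes. The latter share takes in genes kept at 0.5 CPM in only 2 samples, and none was taken at the members' levels. In RPKM, SSRP1 was the highest member in every group, with low glucose means of 92.8 for MDA-MB-231 against 104.6 for MDA-MB-468, and 32 and 34 members were at 10 RPKM or more. The lowest was CHD7 at 1.64 in MDA-MB-231 and SMARCA1 at 0.537 in MDA-MB-468. RPKM scales to all reads of a library and normalized counts to its size factor, so small differences between the lines depend on the scale. On normalized counts SSRP1 did not pass, with a log2 difference of 0.03.

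**Figure D4:**
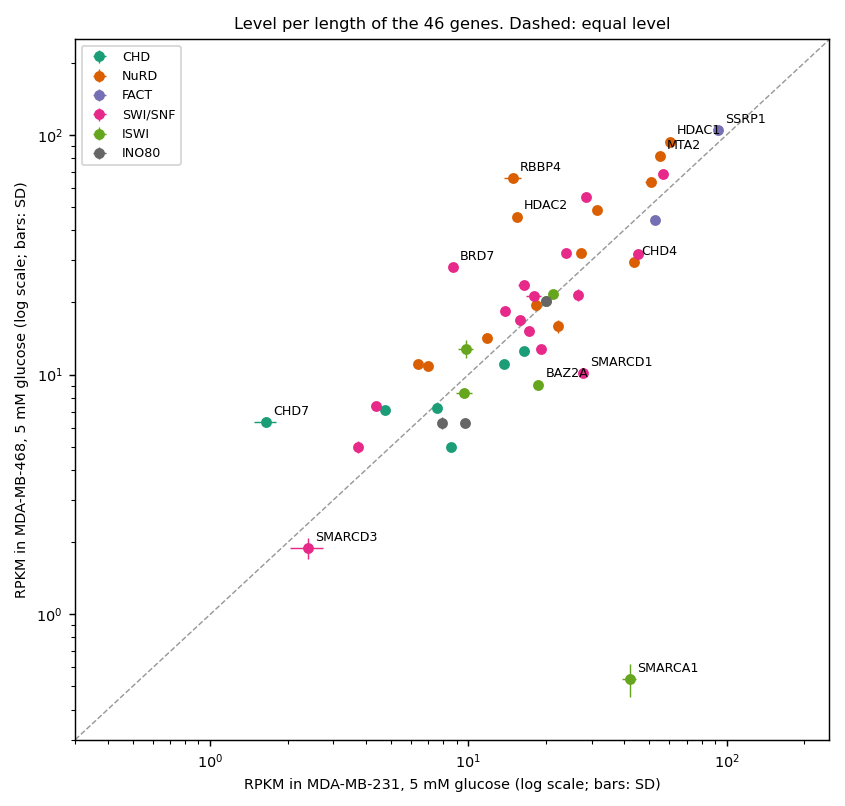
Mean RPKM of the 46 genes in 5 mM glucose in MDA-MB-231 (horizontal) and MDA-MB-468 (vertical), on log axes, coloured by complex, with SD bars (n = 4) and a dashed line of equal level. SMARCA1 lies far below the line, at 42.1 and 0.537 RPKM, while RBBP4, CHD7 and BRD7 lie above it.

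SMARCA1 set the lines apart most. Against the MDA-MB-231 values given above, its MDA-MB-468 values of 26.3 to 38.7 gave a log2 difference of -6.40 ± 0.11 (limma adjusted p = 8.31e-19). The levels of the ISWI ATPases followed, with SMARCA5 at 19.9 ± 0.77 RPKM (SD) in MDA-MB-231 against 20.3 ± 0.25 in MDA-MB-468. SMARCA5 therefore held 32.1% ± 0.99 of the sum of the ISWI ATPases in MDA-MB-231 against 97.4% ± 0.40 in MDA-MB-468, and the sum was 58.6 to 65.6 RPKM in the former and 20.6 to 21.2 in the latter. On normalized counts the limma test called SMARCA5 lower in MDA-MB-468. After the length correction it was called higher, at 0.11 (limma adjusted p = 0.000357). SMARCD1 was at 1601, 1564, 1620.4 and 1515 normalized counts in MDA-MB-231 against 531, 514, 522 and 529.9 in MDA-MB-468, a log2 difference of -1.59 ± 0.03 (limma adjusted p = 8.98e-18). BAZ2A was at 3039, 2804, 2878 and 2838 in MDA-MB-231, above its range of 1239 to 1312 in MDA-MB-468, a log2 difference of -1.18 ± 0.03 (limma adjusted p = 3.68e-16).

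RBBP4, CHD7 and BRD7 were the members highest in MDA-MB-468 relative to MDA-MB-231. RBBP4, a histone chaperone shared by NuRD and other complexes (chr1:33116743-33151812), was at 1883, 1979.6, 2024 and 2217 normalized counts in MDA-MB-231 against 8184, 8466, 8139.8 and 8008 in MDA-MB-468. The lines were far apart, with a log2 difference of 2.02 ± 0.04 (limma adjusted p = 1.00e-17). CHD7, a helicase known for its role in the neural crest, was at 314, 327, 304 and 373 in MDA-MB-231 against 1139.5, 1107, 1163 and 1219.8 in MDA-MB-468, a log2 difference of 1.81 ± 0.07 (limma adjusted p = 1.58e-13). BRD7, of PBAF, was at 829.6, 787, 811 and 842 against 2424, 2464, 2300.1 and 2407, a log2 difference of 1.55 ± 0.03 (limma adjusted p = 3.00e-17). Of the exonic bases, 22.8% of RBBP4 and 41.9% of BRD7 lie under genes on the opposite strand, SYNC and ADCY7 among them, and each has 7 annotated pseudogenes of its name. SYNC differed by 1.09 ± 0.10 and ADCY7 by -0.45 ± 0.10 between the lines.

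**Figure D5:**
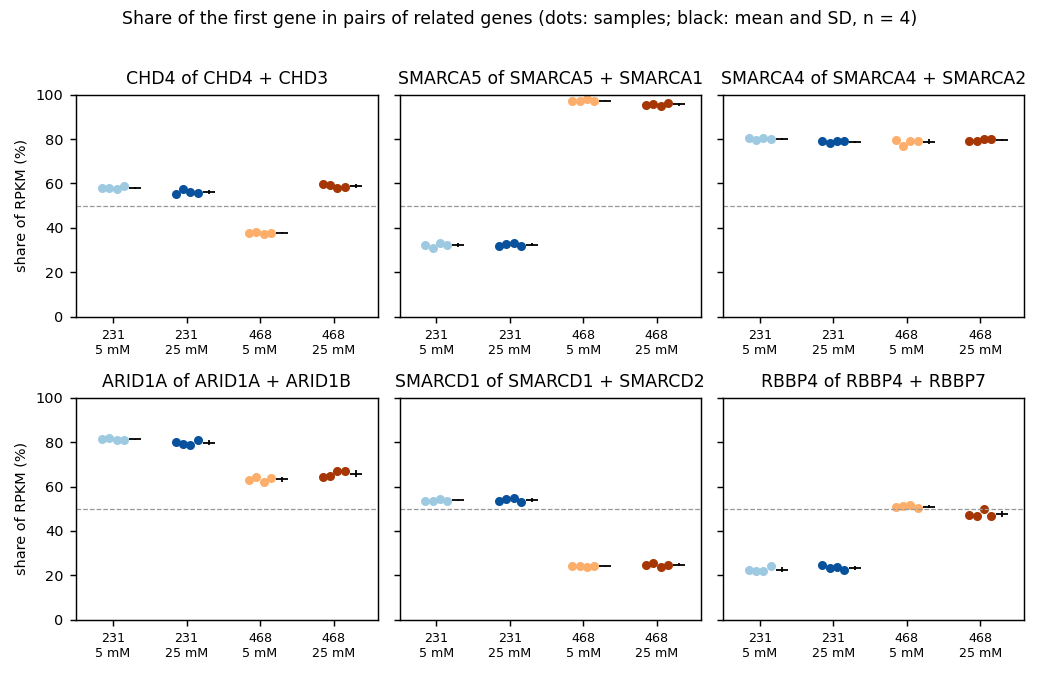
Share of the first gene in the summed RPKM of 6 pairs of related members, as dots for the 16 samples by line and glucose level, with the mean and SD of each group in black and a dashed line at 50%. CHD4 moves across 50% of its pair with glucose in MDA-MB-468, and SMARCA5 goes from 32.1% in MDA-MB-231 to 97.4% in MDA-MB-468 in low glucose.

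Other pairs of related subunits had unlike shares in the lines, given here for low glucose and not tested. SMARCD1 held 53.8% ± 0.39 of the RPKM sum with SMARCD2 in MDA-MB-231 against 24.05% ± 0.21 in MDA-MB-468. RBBP4 held 22.6% ± 1.08 of the sum with RBBP7 in MDA-MB-231 against 51.0% ± 0.47 in MDA-MB-468. ARID1A held 81.4% ± 0.36 of the sum with ARID1B in MDA-MB-231 against 63.4% ± 1.1 in MDA-MB-468, and HDAC1 held 79.6% ± 0.64 and 67.25% ± 0.89 of the sum with HDAC2. The share of SMARCA4 in the sum with SMARCA2 was 80.3% ± 0.43 in MDA-MB-231 against 78.85% ± 1.16 in MDA-MB-468, and 78.9% ± 0.40 and 79.7% ± 0.53 in high glucose. RPKM uses the canonical transcript, so a line that uses another transcript of a gene would shift these shares.

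Of other remodeler genes, 59 were listed and 57 found, 8 of them further ATPases outside these complexes. In MDA-MB-231 1 was higher and 9 lower of 55 tested, beside 5.71% and 9.37% of all genes. The 8 further ATPases gave 0 of the higher and 3 of the lower genes. TFPT of the INO80 complex rose, with a log2 fold change of 0.22 ± 0.06, and HELLS and DPF3 had the largest falls past the threshold, with -0.42 ± 0.08 and -0.33 ± 0.11. In MDA-MB-468, 14 were higher and 16 lower of 56 tested, beside 24.9% and 22.7% of all genes, and the further ATPases gave 1 of the higher and 6 of the lower. DPF1 and VPS72 had the largest rises, with 1.23 ± 0.25 and 0.55 ± 0.05, and ERCC6 and BICRA the largest falls past the threshold, with -0.70 ± 0.11 and -0.56 ± 0.07. DPF1 and DPF3 are alternative SWI/SNF subunits, VPS72 belongs to SRCAP, BICRA defines the non-canonical SWI/SNF form, and HELLS and ERCC6 are further ATPases of the same superfamily.

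The remodeler genes have long transcripts, and the transcript length of the libraries moved with glucose. The median canonical transcript was 5932 bases over the members and 3114 over the genes tested in MDA-MB-231. The read-weighted transcript length of the libraries was 4158 to 4256 bases in low and 4113 to 4147 in high glucose in MDA-MB-231, and 3952 to 4018 in low and 3830.5 to 3936 in high glucose in MDA-MB-468. Across members, Spearman's rho of length and log2 fold change was -0.0046 for MDA-MB-231 but -0.43 for MDA-MB-468 (n = 46 genes, which share their libraries), against -0.19 and -0.15 over all genes. In MDA-MB-468, the 8 members under 3000 bases had a median log2 fold change of 0.20, the 15 from 3000 to 6000 bases 0.00 and the 23 longer ones -0.09. The medians of all genes in these classes were 0.06, -0.02 and -0.09. The share of reads from mitochondrial messenger RNA was 2.74% to 3.15% in low and 2.14% to 2.40% in high glucose in MDA-MB-468, while in MDA-MB-231 the groups overlapped. The part of these differences in the members' results was not tested beyond the length correction.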

How the data were processed

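RNA sequencing was done by the study on 16 samples of MDA-MB-231 and MDA-MB-468 cells, 4 per line and glucose level. Per the study's methods, the authors trimmed reads with Trimmomatic and aligned them with TopHat to hg19 with Ensembl annotation, while the submitters' processing notes name hg38 and edgeR. The counting program and its use of strand are not given in the sources used here. The deposited values are a signal, read counts divided by a size factor of each library, and not the CPM the methods name. Whole reads were recovered for 100% of the values (largest deviation 5.82e-05, tolerance 0.001), which gave the depth of each library. The floor of 3 reads covers counting error only. No column was left unused.

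The test was limma (version 3.58.1, R 4.3.3), run for genes reaching 0.5 CPM in at least 2 samples on the scale log2(value + 1), with a mean-variance trend and no covariate, two-sided, with Benjamini-Hochberg adjustment over all genes tested and a threshold of 0.05. Fold changes are on that log2(value + 1) scale and understate low genes. Each glucose comparison used the 8 samples of its line, and the comparisons between lines used all 16, so these share samples. The limma, edgeR and DESeq2 fits of the glucose responses and their difference were run on simulated data. Changes were planted in MDA-MB-231 only and were larger than those of the members there. The level between lines and the length and GC corrections were not simulated. Alternatives were another pseudocount (10), filters (none, or 1 CPM in 4 samples), TMM and quantile scaling, edgeR 4.0.16 and DESeq2 1.42.0 on the recovered reads, corrections for transcript length and GC content, a replicate block and leaving out each library. The replicate numbers gave no sign of pairing. For this, the mean of its group was taken off each gene. What remained correlated between same-numbered low and high glucose samples at -0.034 to -0.011 in MDA-MB-231 and 0.019 to 0.031 in MDA-MB-468. Whether the samples were paired is not stated in the labels. Gene coordinates and lengths came from GENCODE on GRCh37 (hg19), and promoters from RefSeq.

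The members and gene lists were chosen with earlier results of these data known. All members are accounted for by complex. Values of every sample are given, per line, for the 4 largest rises and 4 largest falls among called members whose groups did not overlap, for the 3 largest differences between responses in each direction, and for the 3 members highest in each line relative to the other. Of the other remodeler genes, up to 2 of the largest rises and falls past the threshold per line are named, and MDA-MB-231 had 1 rise. HDAC2 in MDA-MB-468 was added after its values were seen.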

Additional observations from a re-analysis of the deposited data

Results flagged for a closer look

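Within groups of 4 samples, 10 of the 184 groups tested over the members held a sample far from the other 3 by Dixon's test at its 95% value, and chance alone flags about 1 in 20 groups. In MDA-MB-468 in low glucose these were replicate 4 for CHD8 (1641 normalized counts) and CHD4 (3179.7), and replicate 2 for MTA1 (802.9), GATAD2B (1615) and SMARCD2 (1204). In MDA-MB-468 in high glucose they were replicate 2 for CHD6 (1112), SSRP1 (8170.0) and SMARCC1 (4979). In MDA-MB-231 they were high glucose replicate 4 for ARID1B (721.9) and low glucose replicate 4 for SMARCA5 (2787). The calls of CHD4 and SSRP1 in MDA-MB-468 held without any 1 library.

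The glucose response differed between the lines for 23 members by the limma test of the difference, MDA-MB-468 minus MDA-MB-231, over the samples already used for each response. In NuRD and the other CHD genes the differences were 1.08 for CHD4, 0.31 for MBD2, 0.30 for CHD6, 0.26 for MTA3, 0.16 for RBBP7, -0.13 for CHD2 and -0.27 for CHD3 on the log2 scale. In FACT they were 1.01 for SSRP1 and 0.21 for SUPT16H. In SWI/SNF they were 0.54 for ACTL6A, 0.53 for SMARCD1, 0.50 for SMARCD3, 0.49 for SMARCD2, 0.33 for SMARCE1, 0.31 for ARID1A, 0.26 for SMARCB1, 0.21 for SMARCA4, 0.17 for BRD7 and -0.34 for PBRM1. In ISWI they were 0.74 for SMARCA1, 0.57 for BAZ2A and 0.26 for BAZ1B, and in the INO80 family -0.23 for INO80.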

How the results depend on the processing

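Of 4324 values of single members under alternatives, 4167 kept their side of the threshold. Another 16 changed direction with a call in the main fit or in the alternative. A change of direction with no call in either fit was counted among the 4167. Calls held under every alternative for 6 of the 12 called members in MDA-MB-231, 22 of 30 in MDA-MB-468, 19 of 23 for the difference in response and 35 of 42 for the level in low glucose. After the transcript length correction 2 members were higher (CHD2 and INO80) and 8 lower in MDA-MB-231, and 10 were lower in MDA-MB-468, or 9 with the replicate block as well. Under quantile normalization 7 members were lower in MDA-MB-231 and 9 had the lower response in MDA-MB-468. With the replicate block alone, members higher and lower were 0 and 10 in MDA-MB-231 and 14 and 15 in MDA-MB-468. In the labels, the samples of a block share only a number. Over all genes the calls in MDA-MB-231 went from 2245 to 1624. By edgeR the counts were 0 and 11 in MDA-MB-231 and 14 and 16 in MDA-MB-468, and by DESeq2 0 and 12 and 14 and 15. Without each library in turn, 8 to 14 were lower and 0 to 0 higher in MDA-MB-231, 14 to 15 higher and 13 to 17 lower in MDA-MB-468, 18 to 20 higher and 4 to 6 lower in response, and 20 to 22 higher and 21 to 21 lower in level. The length correction, with and without the replicate block, turned CHD2 in MDA-MB-468 to 0.0057 and the difference in level to 0.027 for CHD1, 0.11 for SMARCA5, 0.085 for BAZ1B and 0.16 for SRCAP. With the length correction alone, SMARCA5, BAZ1B and SRCAP were called higher in MDA-MB-468 in level (limma adjusted p = 0.000357, 0.0353 and 0.00253). CHD1 was not called (limma adjusted p = 0.516). Quantile normalization turned the difference in level to 0.043 for SMARCA5, 0.041 for BAZ1B and 0.054 for SRCAP, with no call. The GC content correction turned it to 0.014 for SMARCA5 and -0.059 for SSRP1, and turned SMARCA4 in MDA-MB-468 to -0.0695. The call of SMARCB1 in level (0.12) was lost without MDA-MB-231 replicate 4 or MDA-MB-468 replicate 1 or 3 in low glucose (0.06 to 0.10). The causes were not tested. Depth limits SMARCA1 in MDA-MB-468 most, at 30 to 61 reads a library.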
